A study of Homo sapiens with 6 samples.

Results

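The kinases that phosphorylate the tail of RNA polymerase II, together with their cyclins, were examined in A2780 cells in which one of them, CDK12, had been edited. The 10 genes were CDK12, CDK13, CCNK, CDK9, CCNT1, CCNT2, CDK7, CCNH, MNAT1 and CDK8, taken by symbol from the 60483 genes listed in the count table, and each of the 10 was matched to 1 identifier. All 10 passed the filter on low counts and were among the 16198 genes tested. RNA was sequenced from A2780, a human ovarian carcinoma line, in 3 libraries of genotype WT and 3 libraries of genotype CDK12 KO, grown in the same medium (RPMI with serum and glutamine) with no drug. The KO cells are 1 homozygous clone, obtained by editing exon 1 of CDK12 with a Cas9 plasmid and then editing a heterozygous clone again, so differences between WT and KO cannot be told apart from differences between this clone and its parental line. The paper reports a higher DNA content and chromosome number in this clone than in the parental line. The labels do not say whether the 3 libraries of a group came from separate cultures, and p-values therefore measure the spread between these libraries, which may be technical.

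Transcription by RNA polymerase II is paced by cyclin-dependent kinases that act on the repeated tail of its largest subunit. CDK7, with cyclin H (CCNH) and the assembly factor MAT1 (MNAT1), forms the CDK-activating kinase, part of the general factor TFIIH, which acts at initiation and also phosphorylates other CDKs. CDK9, with cyclin T1 or T2 (CCNT1, CCNT2), forms P-TEFb, which releases paused polymerase. CDK12 and its paralog CDK13 each pair with cyclin K (CCNK) and act during elongation, and CDK12 is known in ovarian carcinoma as a recurrently mutated gene linked to the expression of long DNA repair genes. CDK8, with cyclin C (CCNC), belongs to the kinase module of the Mediator, which bridges transcription factors and the polymerase.

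CDK12 (ENSG00000167258) occupies chromosome 17 between 39461486 and 39567559, plus strand (GRCh38). Exon 1 of its reference transcript, the exon against which the plasmid was directed, runs from 39461486 to 39463117, is 1632 bases long and holds the first 1046 coding bases. Its first 120 coding bases in the reference are shown because they open the coding part of the targeted exon. The position of the edits within the exon is not marked. The start codon is in capitals.
CDK12 coding start, chr17:39462072-39462191, plus strand: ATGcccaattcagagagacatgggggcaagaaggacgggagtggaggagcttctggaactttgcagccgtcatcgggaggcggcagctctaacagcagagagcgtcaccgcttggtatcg
The counts are per gene, so edited and unedited transcripts and the exons of CDK12 could not be separated.

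Across the 10 genes, CDK7 was higher in KO, 7 were lower (CDK12, CCNK, CDK9, CCNT1, CCNH, MNAT1 and CDK8) and CDK13 and CCNT2 were not called, at an adjusted p under 0.05 (quasi-likelihood test of edgeR, Benjamini-Hochberg over all tested genes). At the same threshold 63.9% of all tested genes were called, 31.9% higher and 32.0% lower, so most expressed genes differed between the WT and KO libraries and a call alone did not set a gene apart. Without WT replicate 2, 4 of the 10 were called lower. None of the 10 passed the fold threshold of the study's methods, a log2 fold change above 1 or below -1 with that adjusted p, which 16.0% of tested genes passed (8.3% higher and 7.73% lower). The WT and KO values did not overlap for 8 of the 10 genes, 7 lower and 1 higher in KO, against 66.4% of tested genes (33.5% lower and 32.8% higher). Their log2 fold changes had a median of -0.15, against 0.00 for all tested genes.

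**Figure D1:**
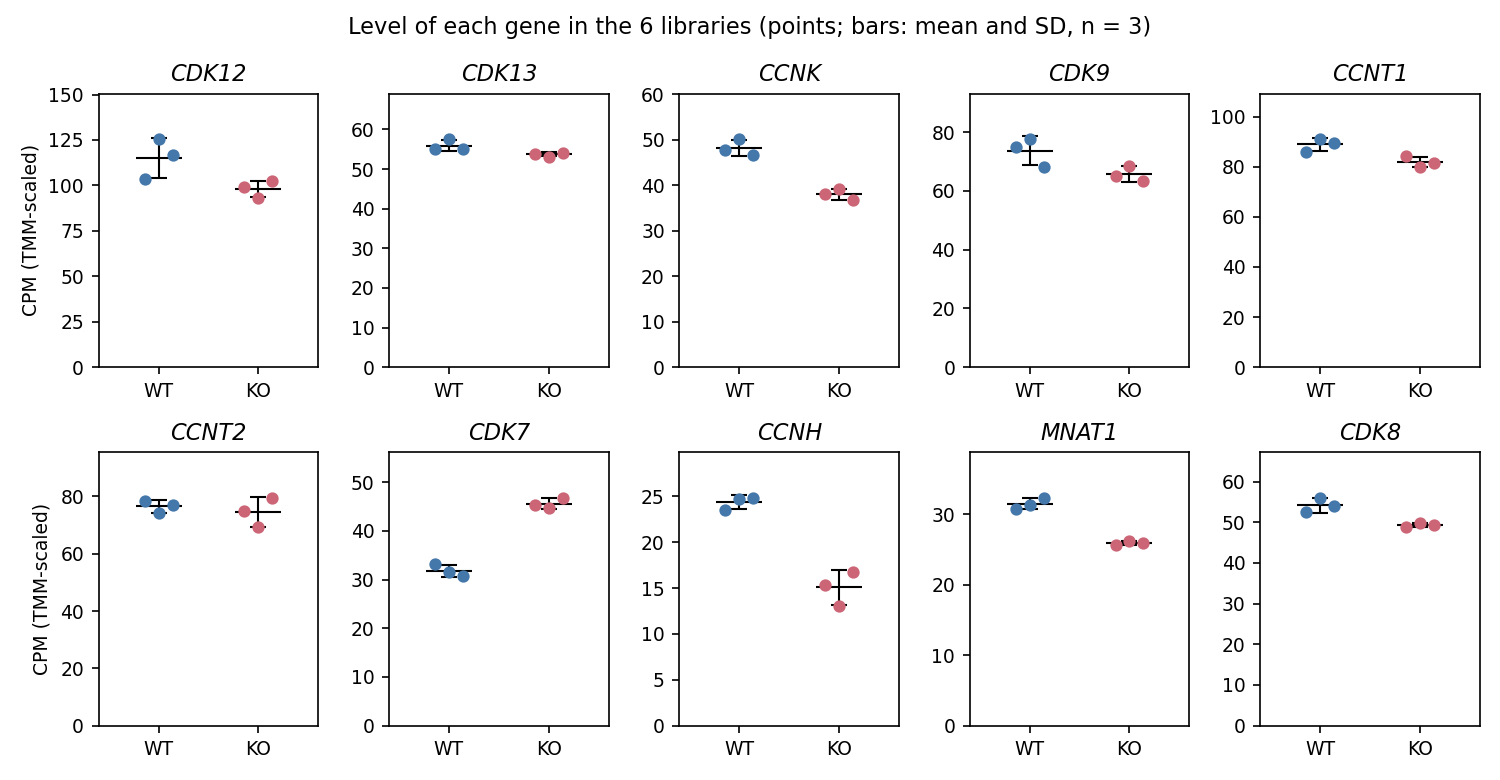
Level of each of the 10 genes, in CPM (TMM-scaled; the vertical axis starts at 0), in the 3 WT and 3 KO libraries; points are libraries and bars the mean and SD (n = 3). CDK7 is the only panel with every KO library above every WT library, and the KO libraries of CCNH, between 13.1 and 16.8 CPM, lie below its WT libraries.

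CDK12 RNA was still present in KO cells, at 85.2% of the WT level. The paper reports no CDK12 protein in these cells on western blots, so this RNA level does not measure how complete the knockout is. CDK12 RNA was counted 2831, 3759 and 1294 times in WT replicates 1 to 3 and 2432, 2504 and 1818 times in KO replicates 1 to 3. As CPM, the counts scaled to a common library total after TMM normalization, these were 103, 125 and 117 in WT and 99.0, 93.0 and 102 in KO. The groups did not overlap, but the lowest WT library and the highest KO library, at 103.3 and 102.1 CPM, were close. WT averaged 115 ± 11.1 CPM and KO averaged 98.0 ± 4.64 CPM (SD, n = 3 for both), which gave a log2 fold change of -0.23 with a 95% interval from -0.35 to -0.11 (adjusted p = 8.2e-04, edgeR). A smaller absolute fold change was found for 39.4% of tested genes. The WT spread was the widest of the 10 genes in CPM, and the log2 fold change lay between -0.32 without WT replicate 1 and -0.16 without WT replicate 2.

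CDK13 (ENSG00000065883; chromosome 7 from 39950121 to 40099580, plus strand), the paralog that shares cyclin K with CDK12, differed little. Its levels were 55.2, 57.6 and 55.1 CPM in WT and 53.9, 53.2 and 54.1 CPM in KO. Each KO library was below each WT library by a small margin. The log2 fold change was -0.06 with a 95% interval from -0.17 to 0.05 (adjusted p = 0.319, edgeR), so the interval allows a decrease of up to 0.17 and an increase of up to 0.05 on the log2 scale.

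Cyclin K fell more than either of its kinases in the point estimate. CCNK (ENSG00000090061; chromosome 14 from 99481169 to 99535044, plus strand) was at 47.7, 50.1 and 46.6 CPM in WT and 38.1, 39.2 and 36.7 CPM in KO, with a clear gap between the groups. The log2 fold change was -0.34 (standard error 0.0579, adjusted p = 4.77e-06, edgeR), and KO held 78.9% of the WT level. Its exons share 4893 bases with exons of CCDC85C on the opposite strand, and whether the counting used the strand is not given in the sources used here. CCDC85C averaged 22.4 ± 1.12 CPM in the WT libraries against 18.5 ± 2.10 in KO (SD, n = 3; log2 fold change -0.26, adjusted p = 0.00498, edgeR), and its part in the value of CCNK was not tested.

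The relation between partners was examined as a log2 ratio of levels per kilobase of exon within each library, which does not depend on how libraries are scaled to each other; 10 pairs were compared. With 3 libraries against 3, an exact permutation test cannot go below p = 0.1 (two-sided), and none of the 10 pairs could therefore pass 0.05. The log2 ratio of CDK13 to CCNK was -1.38, -1.39 and -1.35 in WT and between -1.15 and -1.03 in the 3 KO libraries, so it was higher in KO by 0.28 with no overlap (exact permutation p = 0.1, two-sided, and 0.2 after adjustment over the 10 pairs). The ratio of CDK12 to CCNK was 0.46, 0.67 and 0.66 in WT and 0.72, 0.59 and 0.82 in KO, and the groups overlapped (difference 0.11, exact permutation p = 0.4, adjusted p = 0.444). The ratio of CDK13 to CDK12 was -1.84, -2.06 and -2.01 in WT and -1.81, -1.74 and -1.85 in KO, a difference of 0.17 with overlapping values (exact permutation p = 0.2, adjusted p = 0.333). CDK13 RNA thus stayed below CDK12 RNA per kilobase in all 6 libraries.

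**Figure D2:**
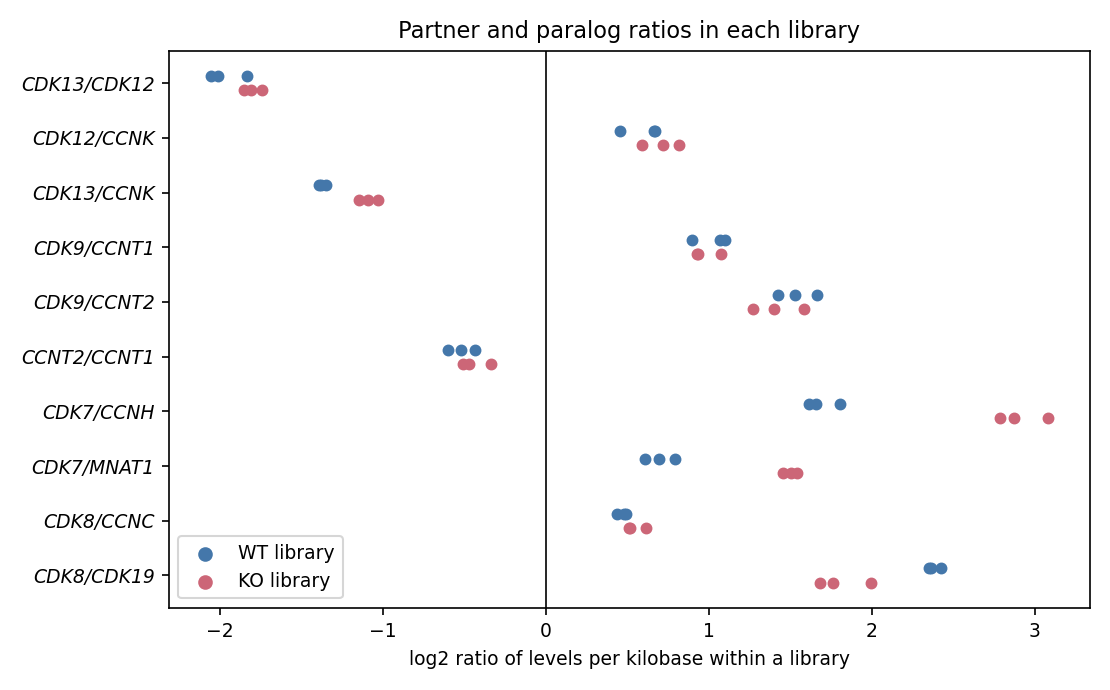
Log2 ratio of levels per kilobase of exon (horizontal axis) for 10 pairs of partners or paralogs; each point is 1 library, 3 WT and 3 KO per pair. The ratio of CDK7 to CCNH lies between 1.61 and 1.81 in WT and between 2.79 and 3.08 in KO, and all other pairs differ by less.

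The genes of the CDK-activating kinase moved apart: CDK7 rose while CCNH and MNAT1 fell. CDK7 (ENSG00000134058; chromosome 5 from 69234795 to 69277430, plus strand) was at 33.1, 31.5 and 30.7 CPM in WT and 45.3, 44.7 and 46.9 CPM in KO. All KO libraries were well above all WT libraries, and KO held 143% of the WT level. The log2 fold change was 0.51 (95% interval 0.39 to 0.63, adjusted p = 5.57e-09, edgeR), and 67.0% of tested genes had a smaller absolute change.

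CCNH (ENSG00000134480; chromosome 5 from 87318416 to 87412930, minus strand) showed the largest change of the 10 genes. It was at 23.5, 24.7 and 24.9 CPM in WT and 15.3, 13.1 and 16.8 CPM in KO, so the KO libraries varied more but stayed below every WT library. The log2 fold change was -0.70 (95% interval -0.87 to -0.54, adjusted p = 4.34e-09, edgeR), and KO held 61.8% of the WT level; 76.1% of tested genes had a smaller absolute change. Exons of CCNH share 771 bases with RASA1, a gene on the opposite strand that inhibits RAS signaling. RASA1 went in the opposite direction to CCNH, averaging 56.4 ± 2.39 CPM in WT libraries against 77.5 ± 4.51 in KO (SD, n = 3; log2 fold change 0.45, adjusted p = 1.86e-08, edgeR).

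MNAT1 (ENSG00000020426; chromosome 14 from 60734742 to 60969965, plus strand), which encodes the factor that holds CDK7 and cyclin H together, was at 30.8, 31.3 and 32.3 CPM in WT and 25.6, 26.1 and 25.9 CPM in KO. The libraries of each group were close to each other and the groups were separate. The log2 fold change was -0.28 (95% interval -0.41 to -0.15, adjusted p = 3.18e-04, edgeR), with KO at 82.3% of WT. It shares 122 exonic bases with 1 gene on the same strand, ENSG00000258892, where reads could be assigned to neither gene.

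Within libraries, the log2 ratio of CDK7 to CCNH per kilobase was 1.81, 1.66 and 1.61 in WT and 2.87, 3.08 and 2.79 in KO. The means correspond to a CDK7 level 3.23 times that of CCNH in WT and 7.53 times in KO, a log2 difference of 1.22 (exact permutation test, two-sided, p = 0.1, adjusted p = 0.2). The ratio itself depends on the length used, while the difference does not: per kilobase of the longest transcript, CDK7 was at 21.9 and CCNH at 10.2 CPM in WT, and at 31.3 and 6.30 CPM in KO. For CDK7 to MNAT1 the log2 ratio was 0.79, 0.69 and 0.61 in WT and between 1.46 and 1.54 in the 3 KO libraries, a difference of 0.80 (exact permutation p = 0.1, adjusted p = 0.2). These were the 2 largest differences among the 10 pairs, and each had separate groups.

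The promoters of these 3 genes and of CDK12 are shown because their RNA levels moved in different directions. RefSeq promoter sequences (build GRCh38.p14) were found for 10 of the 10 genes, and the window of 250 bases before the RefSeq start was searched on both strands for the GC box GGGCGG, the ETS core CCGGAAG, the CCAAT box, the TATA box TATAAA, the E box CACGTG, the cAMP response element TGACGTCA and the motif of NRF1; no matches overlap in the stretches printed. The sequences run 5′ to 3′ on the strand of the gene, stop before the first base annotated in GENCODE where that comes earlier, and carry any match in capitals; for CDK7 and MNAT1 the end of the searched window is therefore not shown.
CDK7, chr5:69234636-69234794, plus strand: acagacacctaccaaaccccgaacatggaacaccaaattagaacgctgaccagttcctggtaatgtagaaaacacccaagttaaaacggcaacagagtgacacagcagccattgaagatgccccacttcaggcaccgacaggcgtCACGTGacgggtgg
CCNH, chr5:87412931-87413180, minus strand: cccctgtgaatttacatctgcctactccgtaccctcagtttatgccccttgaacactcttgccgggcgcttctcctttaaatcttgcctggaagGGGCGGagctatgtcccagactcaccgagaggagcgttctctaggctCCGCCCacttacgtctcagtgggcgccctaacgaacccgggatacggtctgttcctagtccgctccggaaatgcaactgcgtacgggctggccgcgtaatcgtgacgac
MNAT1, chr14:60734511-60734741, plus strand: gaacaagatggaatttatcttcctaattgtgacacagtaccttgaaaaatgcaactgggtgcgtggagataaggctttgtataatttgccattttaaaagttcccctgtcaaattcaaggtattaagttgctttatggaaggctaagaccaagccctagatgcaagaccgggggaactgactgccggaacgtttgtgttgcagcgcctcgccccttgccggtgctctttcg
CDK12, chr17:39461236-39461485, plus strand: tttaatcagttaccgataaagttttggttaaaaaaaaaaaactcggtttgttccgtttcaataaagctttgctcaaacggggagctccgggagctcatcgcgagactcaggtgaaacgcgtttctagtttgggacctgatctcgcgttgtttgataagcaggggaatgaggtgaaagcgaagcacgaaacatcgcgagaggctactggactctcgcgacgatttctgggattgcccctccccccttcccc

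CDK7 held a CACGTG, a motif found in 6.34% of the 35116 RefSeq promoters of the same length, and so did CCNT1 and CDK8. CCNH held GGGCGG at 2 places, and 8 of the 10 genes had at least 1 such match, against 42.6% of all promoters. CDK12 and MNAT1 held none of the 7 motifs in these windows. TATAAA was in none of the 10 windows, against 10.7% of all promoters. The GC content of the 10 windows ranged from 47.6% in MNAT1 to 82.0% in CDK9. A match is a description of letters and not a binding site.

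Of the P-TEFb genes, CDK9 and CCNT1 were called lower and CCNT2 was not called, with log2 fold changes from -0.17 to -0.04. CDK9 (ENSG00000136807; chromosome 9 from 127785679 to 127790792, plus strand), its catalytic subunit, was at 75.1, 77.7 and 68.2 CPM in WT and 65.2, 68.6 and 63.5 CPM in KO. WT replicate 3 lay below KO replicate 2, so the groups overlapped. The log2 fold change was -0.17 (95% interval -0.28 to -0.06, adjusted p = 0.00781, edgeR), and the adjusted p became 0.0545 without WT replicate 2.

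CCNT1 (ENSG00000129315; chromosome 12 from 48688458 to 48716998, minus strand), the main cyclin of P-TEFb and the one used by the HIV Tat protein, was at 86.1, 91.0 and 89.7 CPM in WT and 84.2, 79.9 and 81.6 CPM in KO. The groups were separate by a narrow margin, and the log2 fold change was -0.12 (adjusted p = 0.0409, edgeR). The call was lost without WT replicate 2 (adjusted p = 0.116), WT replicate 3 (0.0849), KO replicate 2 (0.106) or KO replicate 3 (0.0962).

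CCNT2 (ENSG00000082258; chromosome 2 from 134918235 to 134959342, plus strand), the paralog of cyclin T1, was at 78.5, 74.1 and 76.8 CPM in WT and 74.8, 69.3 and 79.6 CPM in KO. The KO libraries spanned the WT libraries on both sides. Its log2 fold change was -0.04 with a 95% interval from -0.15 to 0.07 (adjusted p = 0.546, edgeR), and it was 0.01 with libraries scaled by their totals alone or without KO replicate 2. Its exons share 150 bases with CCNT2-AS1 on the opposite strand, which was at 0.692 ± 0.136 CPM in WT. The within-library log2 ratios of CDK9 to CCNT1 and to CCNT2 and of CCNT2 to CCNT1 overlapped between WT and KO, with differences of -0.04, -0.12 and 0.08 (exact permutation p = 0.9, 0.4 and 0.4, two-sided).

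CDK8 (ENSG00000132964; chromosome 13 from 26254104 to 26420982, plus strand), the kinase of the Mediator, was at 52.4, 56.1 and 53.9 CPM in WT and 48.9, 49.9 and 49.4 CPM in KO. The groups were separate, and the log2 fold change was -0.13 (adjusted p = 0.0351, edgeR). The adjusted p was 0.133 without WT replicate 2, 0.0580 without WT replicate 3, 0.103 without KO replicate 1 and 0.0731 without KO replicate 3. Its paralog CDK19 rose from 16.8 ± 0.984 to 22.7 ± 2.37 CPM (SD, n = 3 each; log2 fold change 0.43, adjusted p = 2.55e-05, edgeR), and cyclin C fell from between 44.6 and 47.2 CPM in the WT libraries to between 38.6 and 41.0 CPM in KO (log2 fold change -0.21, adjusted p = 0.00232, edgeR). The within-library log2 ratio of CDK8 to CDK19 per kilobase was 2.42, 2.35 and 2.36 in WT and 1.76, 2.00 and 1.68 in KO, a difference of -0.56 with separate groups (exact permutation test, two-sided, p = 0.1, adjusted p = 0.2). The ratio of CDK8 to CCNC was between 0.44 and 0.49 in WT and between 0.51 and 0.62 in KO, a difference of 0.08, also with separate groups (exact permutation p = 0.1, two-sided, adjusted p = 0.2). Per kilobase of the longest transcript CDK8 lay below CCNC, at 17.7 against 20.9 CPM in WT.

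**Figure D3:**
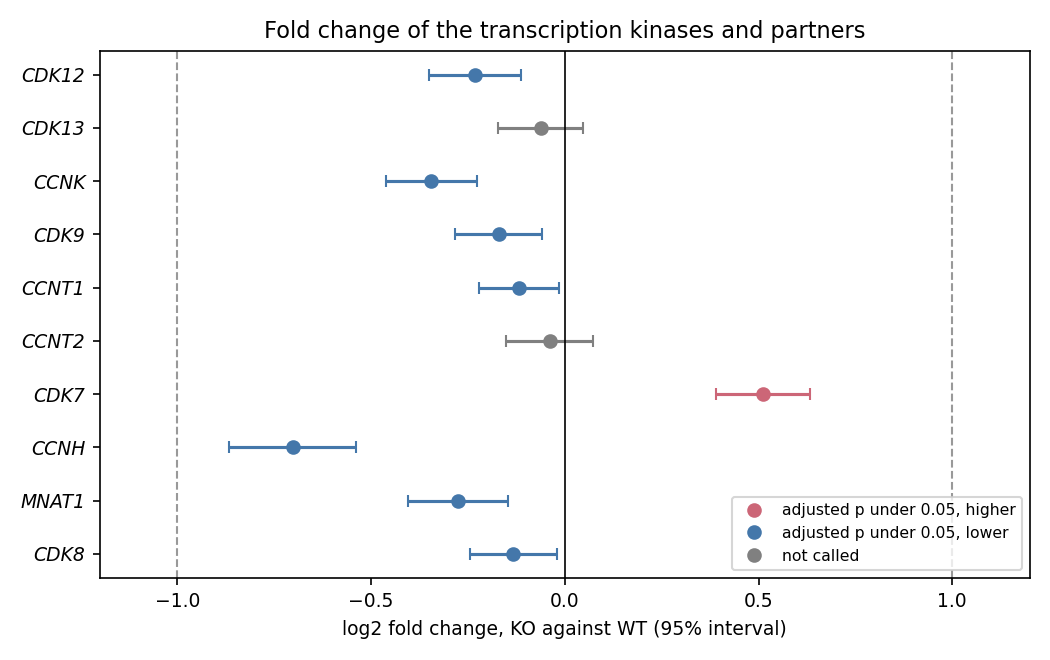
Log2 fold change of KO against WT (horizontal axis) for the 10 genes, with the 95% interval from edgeR's fit; dashed lines mark -1 and 1. CDK7 is at 0.51 and CCNH at -0.70, the other 8 lie between -0.34 and -0.04, and no interval reaches a dashed line.

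Levels of different genes were compared as CPM per kilobase of exon, using the union of all annotated exons. In WT the order of levels per kilobase was CDK9 at 24.5, CDK7 at 13.2, CCNT1 at 12.1, CDK8 at 11.4, CDK12 at 8.87, CCNT2 at 8.42, MNAT1 at 8.12, CCNK at 5.86, CCNH at 4.07 and CDK13 at 2.26. Library values of neighbours in this order overlapped for CCNT1 and CDK8, for CDK12 and CCNT2, and for CCNT2 and MNAT1, and did not overlap for the other neighbours. In KO the order was the same except that CCNT2, at 8.21, lay above CDK12, at 7.56, and these values overlapped. CDK7 reached 18.9 CPM per kilobase in KO and came closer to CDK9, at 21.9. The order depends on the length used: the union of CDK13 exons is 24.8 kilobases and its longest transcript 9.53 kilobases. With the longest transcript in place of the union, 3 of the 10 genes kept their place in WT and 4 in KO, CDK9 and CDK7 held the first 2 places in both groups, with CDK7 first in KO, and CDK13 was last in both.

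The complexes to which the 10 genes belong were followed in lists. Of 12 genes with a row in the table among regulators of P-TEFb and the super elongation complex, 10 were tested, 4 were higher, 3 lower and 3 not called, with a median log2 fold change of -0.01 against 0.00 for all tested genes. HEXIM1 and HEXIM2, which hold P-TEFb inactive on the 7SK RNA, rose: HEXIM1 from 124 ± 1.56 to 165 ± 2.55 CPM (log2 fold change 0.42, adjusted p = 2.36e-09, edgeR) and HEXIM2 from 16.3 ± 1.01 to 32.0 ± 1.09 CPM (log2 fold change 0.95, adjusted p = 1.25e-13, edgeR; SD, n = 3 each). LARP7, which binds and stabilizes the 7SK RNA, fell from 53.4 ± 3.61 to 41.9 ± 2.19 CPM (log2 fold change -0.35, adjusted p = 6.57e-06, edgeR). ELL2, an elongation factor, fell from 12.1 ± 0.628 to 2.80 ± 0.434 CPM (log2 fold change -2.11, adjusted p = 2.69e-16, edgeR) and was the only gene of this list past both thresholds.

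Of the 7 core subunits of TFIIH outside the kinase, among which GTF2H2 has near-identical copies, 2 were higher, 2 lower and 3 not called, with a median log2 fold change of -0.05. The helicase genes ERCC3 and ERCC2, which encode XPB and XPD, fell by 0.42 and 0.36 on the log2 scale (adjusted p = 5.17e-09 and 2.15e-06, edgeR). GTF2H5 and GTF2H3, which encode small structural subunits, rose by 0.14 and 0.13 (adjusted p = 0.0282 and 0.0461, edgeR), and neither call held without WT replicate 2, WT replicate 3 or KO replicate 1, where the count of higher genes was 0. Of the 7 genes of the Mediator kinase module, CDK8 included, 4 were higher, 2 lower and 1 not called, with a median of 0.26. The 4 were CDK19, MED12L, MED12 and MED13, with log2 fold changes of 0.43, 0.42, 0.28 and 0.26, and the 2 were CDK8 and CCNC, of which CDK8 was the less stable, as given above.

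Among 13 tested genes of other CDK-family kinases and cyclins, 4 were higher, 5 lower and 4 not called (median -0.02). CDK14, a kinase of the Wnt pathway, rose by 1.58 on the log2 scale, from 13.8 ± 0.373 to 41.5 ± 2.18 CPM (adjusted p = 1.71e-19, edgeR), and CDK18 and CDK20 rose by 0.86 and 0.53. CCNQ, the cyclin of CDK10, was at 20.9 to 23.0 CPM in the WT libraries and at 16.0 to 16.4 CPM in KO, a log2 fold change of -0.43. The kinases CDK11A and CDK11B are near-identical copies between which reads may be split, and their own values are uncertain. Of the 6 phosphatases that act on the polymerase tail, 3 were higher and 3 lower (median -0.09): CTDSPL had a log2 fold change of 0.42, and CTDP1, CTDSP2 and SSU72 had log2 fold changes of -0.38, -0.36 and -0.33. The cell-cycle kinases and cyclins, given beside the transcription kinases, had 9 of 11 tested genes lower and 1 higher, with a median of -0.63, and 3 past both thresholds. These were CDK6, CCNE2 and CCND1, of which CCND1, the cyclin of early G1, fell from between 325 and 352 CPM in the WT libraries to between 163 and 168 CPM in KO (log2 fold change -1.04, adjusted p = 5.63e-19, edgeR), while CDK6 (17, 34 and 7 counts in WT and 3, 1 and 2 in KO) and CCNE2 (3.48 ± 0.586 CPM in WT) were low. CCNB2, a mitotic cyclin, had a log2 fold change of -0.71. The difference between these lists was not tested.

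The chromosomal surroundings were described by the 5 nearest tested protein-coding genes on each side. Around CDK12, in a stretch of 557 kilobases on chromosome 17, 4 of the 10 neighbours were higher, 3 lower and none past both thresholds, with a median log2 fold change of 0.01; without KO replicate 2, 5 were lower. In order along the chromosome, CACNB1, RPL19, STAC2, FBXL20 and MED1 had log2 fold changes of -0.38, 0.24, -0.90, 0.42 and 0.08, and STARD3, TCAP, PGAP3, ERBB2 and MIEN1 of 0.43, -0.27, 0.33, -0.37 and -0.06. Genes higher and lower in KO were interspersed along the stretch. CDK7 and CCNH lie on chromosome 5, whose 743 tested genes had a median log2 fold change of 0.27, while the medians of the other chromosomes that hold the 10 genes lay between -0.10 and -0.03. The paper's karyotype of the KO clone lists a gain of chromosome 5. It also lists losses of chromosomes 17 (CDK12), 14 (CCNK and MNAT1), 13 (CDK8) and 7 (CDK13). Rearranged copies of 7 and 14 are listed beside these losses. No loss is listed for chromosomes 2, 9 and 12, which hold CCNT2, CDK9 and CCNT1. Several chromosomes that hold none of the 10 genes are listed as gained or lost too. The part of copy number in these values was not tested. Of the 10 neighbours of CDK7, 6 were higher and 1 lower (median 0.27), with PIK3R1 past both thresholds at 1.30. Of the 10 neighbours of CCNH, 5 were higher and 5 lower (median 0.00), with VCAN at -6.21 and POLR3G at -1.02 past both thresholds. The medians of the neighbours of the other members ranged from -0.19 for CDK13 and CDK9 to -0.07 for CCNT1. Past both thresholds were also AMPH (-1.41) and INHBA (-1.22) near CDK13, HIF1A (-1.06) near MNAT1, and BCL11B (4.52) and CYP46A1 (1.24) near CCNK. The same held for TTC16 (1.85) near CDK9, TMEM163 (1.55) near CCNT2 and ATP8A2 (1.78) near CDK8. BCL11B, CYP46A1, TTC16, TMEM163, ATP8A2 and INHBA had WT means under 1 CPM.

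**Figure D4:**
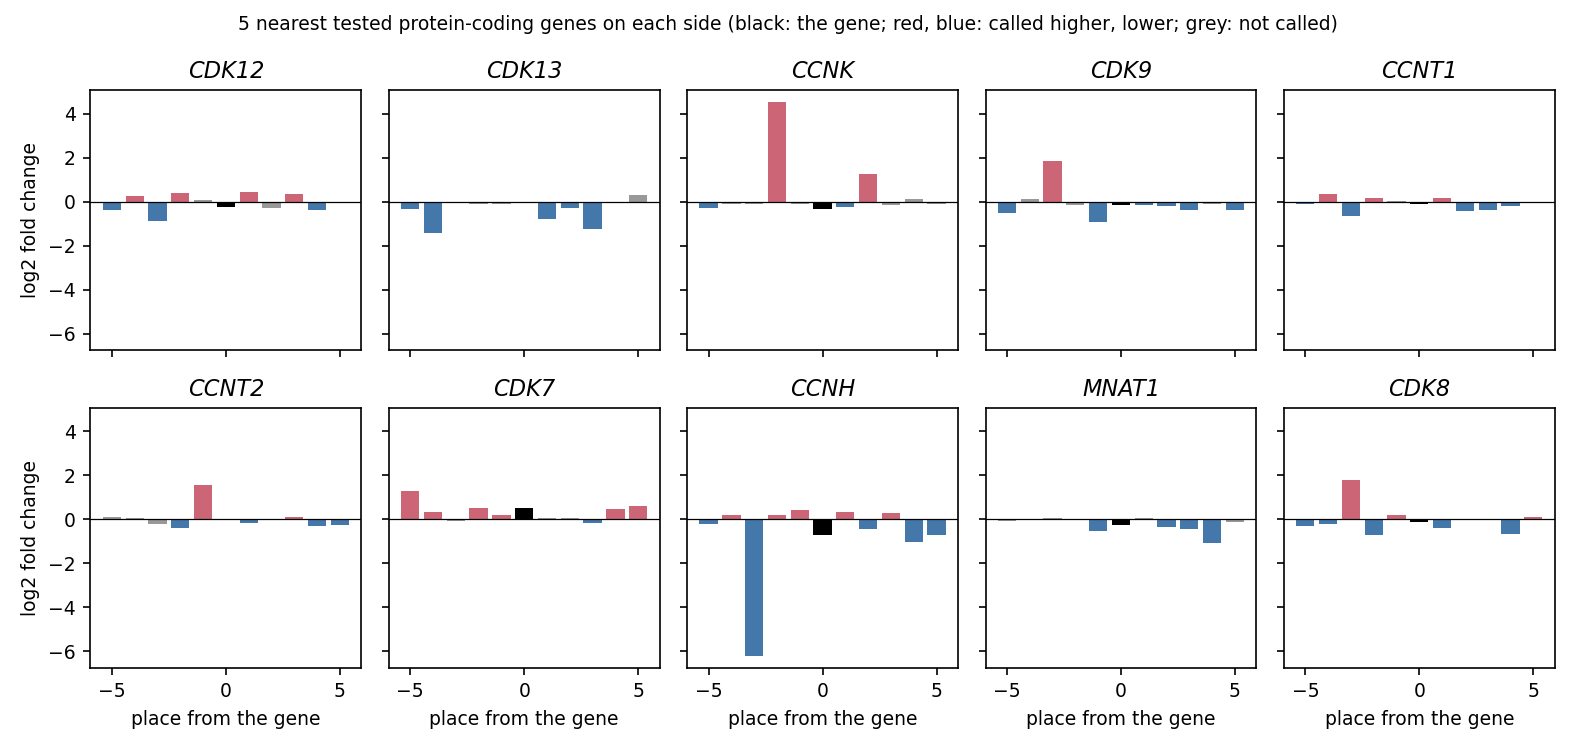
Log2 fold change of KO against WT (vertical axis) of each of the 10 genes (black, place 0) and of the 5 nearest tested protein-coding genes on each side (horizontal axis: place along the chromosome); colors give the call at an adjusted p under 0.05. Neighbours of CDK12 lie between -0.90 and 0.43 in both directions, and 6 of the 10 neighbours of CDK7 are called higher.

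The genes whose log2 CPM over the 6 libraries was most like that of CDK12, among 9839 genes with a mean of at least 10 CPM, were MED9, NOTCH2 and CDK5RAP2, with Pearson's r of 0.997, 0.996 and 0.995. The points share libraries and the 2 groups, and 363 of these genes had r above 0.9 with CDK12, so the values are a description. MED9 was not called (log2 fold change -0.16, adjusted p = 0.103, edgeR), and its WT and KO values overlapped. NOTCH2 averaged 142 ± 13.3 CPM in the WT libraries against 122 ± 5.41 in KO (SD, n = 3), and its lowest and highest WT libraries were the same as those of CDK12.

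Total counts ranged from 11098400 in WT replicate 3 to 30899045 in WT replicate 2, and 3 counts corresponded to 0.0971 to 0.270 CPM, a floor that covers counting error only. The lowest count of any of the 10 genes in any library was 276, for CCNH in WT replicate 3. Processed pseudogenes of CDK7 and CDK8 had at most 17 counts over all libraries, and those of CCNT2 and CCNH had 0. Within a group, the counts of any pair of libraries differed beyond sampling noise, at a ratio of chi-square to its degrees of freedom between 1.72 and 7.21, so none was counted as a duplicate. Of 7 markers of ovarian carcinoma and epithelium, PAX8, WT1, MUC16 and KRT7 were at 0.219 CPM or less in every library and were not tested. Among the 3 tested, KRT8 and KRT18 were higher in KO (log2 fold changes 0.56 and 0.78), while EPCAM was lower (-0.53, adjusted p = 0.0119, edgeR). The summed level of the list, mostly KRT18, was 68.1 to 73.9 CPM in WT and 114 to 119 CPM in KO. The summed level of 4 fibroblast markers was 5139 to 5271 CPM in WT and 2677 to 2811 CPM in KO, nearly all of it COL1A2 and COL1A1, while DCN and LUM were below 1 CPM. Endothelial markers summed to at most 0.892 CPM in any library, with VWF higher in KO and PECAM1 and CDH5 below 0.0900 CPM. Of the leukocyte markers, CD14 was higher in KO at no more than 0.966 CPM in any library, and PTPRC and CD3E were at 0.0900 CPM or less. The part of these markers in the values of the 10 genes was not tested. CPM are relative to the total of a library, so an equal change of all genes would not be seen.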

How the data were processed

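RNA-seq of A2780 WT and CDK12 KO cells (3 libraries each; directional library kit, single-end reads of 75 bases) was analyzed. The authors deposited raw counts per gene, made per the paper's methods with FastQC, STAR alignment to GRCh38 and HTSeq-Count; versions, annotation release and strand setting are not given in the sources used here. Identifiers were matched without version to GENCODE release 44 (56321 of 60483). Genes were kept with filterByExpr (minimum count 10, minimum total 15), scaled with TMM and tested in R 4.3.3 with edgeR 4.0.16 (quasi-likelihood, two-sided, Benjamini-Hochberg). Rose and fell are used at an adjusted p under 0.05. On simulated counts for KO against WT with 200 changed genes among 15908, edgeR recovered 200 with 10 false calls. The planted changes were at the fold threshold or larger, so the recovery of smaller changes, such as those of the 10 genes, was not tested. The simulated share of changed genes was also far below the 63.9% of tested genes called in the data. Scaling and false calls at such a share were not tested. Alternatives were voom/limma 3.58.1 (the tool of the paper), DESeq2 1.42.0, other scalings, filters and a stricter threshold, thinning, and the omission of each library. Ratios used exact permutation tests in scipy 1.17.1. Named genes were the 10 genes, up to 4 called genes per list with the largest change, the partners in the pairs, the neighbours of CDK12, neighbours of the others past both thresholds and the 3 genes most like CDK12; CCDC85C, RASA1 and marker genes were named for overlap or identity. Members and lists were chosen with earlier results of these data known. RN7SK was not matched to a row and was not analysed here. A marker gene is not reported here.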

Additional observations from a re-analysis of the deposited data

How the results depend on the processing

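No paired analysis was possible because the labels number the 6 libraries consecutively and give WT and KO no shared replicate number. Under 15 alternatives each, CDK12, CCNK, CCNH, MNAT1 and CDK7 kept their direction and their call, with CDK12 between -0.32 and -0.16. CCNT1 and CDK8 kept their direction and lost the call in 11 of 15 alternatives, with adjusted p from 0.0194 to 0.207 and from 0.0186 to 0.170. CCNT2 turned to 0.0059 with library totals alone, where the median of all genes was 0.05, and lay between -0.085 and 0.0139 without 1 library in turn, positive without KO replicate 2. Without 1 library in turn, 4 to 7 of the 10 genes were lower (4 without WT replicate 2), 0 to 2 TFIIH core genes were higher, 1 to 2 Mediator kinase module genes were lower, and 3 to 5 neighbours of CDK12 were lower (5 without KO replicate 2). TFIIH core genes called higher numbered 1 with voom/limma and 0 with DESeq2, with no filter beyond 1 count and at an adjusted p under 0.01. The Mediator kinase module had 1 lower gene with DESeq2, upper-quartile normalization, library totals alone, no filter beyond 1 count, at least 10 counts in every library, thinned libraries and an adjusted p under 0.01. With the longest transcript as gene length, 3 genes in WT and 4 in KO kept their place in the order of levels. No KO minus WT difference of a within-library ratio changed sign when a library was left out; gene length cancels in these differences. With libraries thinned to the smallest total, 5 of the 10 genes were lower. CCNT1 (log2 fold change -0.12, adjusted p = 0.0662, edgeR) and CDK8 (-0.12, adjusted p = 0.109, edgeR) lost their calls. Both also lost them at full depth, for example with DESeq2 (adjusted p = 0.0622 for CCNT1 and 0.0661 for CDK8). The part of depth was not tested.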
